A study of Mus musculus with 6 samples.

Results

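The cytosolic ribosomal protein genes were followed through leukocytes sorted from mouse kidney, in control animals and in animals with acute kidney injury after rhabdomyolysis, the breakdown of skeletal muscle. Members were taken by symbol from the deposited gene list: names built as Rpl or Rps with a number, together with the stalk genes Rplp0, Rplp1 and Rplp2 and the gene Rpsa, without rows marked -ps. This gave 83 of 32285 genes, 51 of the large and 32 of the small ribosomal subunit. The rule reads symbols alone, but the gene set was proposed with earlier results of these data known. The main quantity is the share of a cell class's gene UMIs (unique molecular identifiers, each standing for 1 captured mRNA molecule) that came from the members.

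The 6 libraries were 3 from control and 3 from rhabdomyolysis mice, both C57BL/6J at 8 weeks of age. After digestion of the kidneys and lysis of red blood cells, live cells with CD45, a protein on the surface of leukocytes, were sorted for droplet 3′ sequencing. The labels name the injury as RM-AKI; the agent that induced it, the time after injury and the treatment of control mice were not given in the sources used here. The labels also do not say whether the libraries of a group came from separate animals. Each p-value below therefore sets a difference against the spread between libraries only, and that spread may be technical.

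A ribosome joins a small subunit, which reads the mRNA, to a large subunit, which forms the peptide bond. Each subunit holds ribosomal RNA and a fixed set of proteins, most of them present once per ribosome, and the stalk formed by Rplp0, Rplp1 and Rplp2 recruits the translation factors. The mRNAs of these proteins are short, abundant and stable, and most begin with a run of pyrimidines, the terminal oligopyrimidine tract, through which mTORC1 signalling controls their translation. Resting lymphocytes are known for a large share of such mRNAs in single-cell data, and mature neutrophils for a small one.

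Libraries held 10816727 to 22656666 gene UMIs. Called barcodes poor in Malat1, an abundant nuclear RNA, were left out, and they made up 13.5% to 26.4% of called barcodes in control and 28.8% to 58.6% in rhabdomyolysis libraries, most in rhabdomyolysis 3. Of 17988 distinct called barcode sequences, 31 occurred in more than 1 library. Cells were gated by marker UMIs, and the control libraries 1, 2 and 3 gave 668, 543 and 557 T cells against 79, 87 and 120 in rhabdomyolysis. Control libraries gave 1869, 1624 and 1121 macrophages and rhabdomyolysis libraries 499, 781 and 567. The other classes were smaller, down to 8 neutrophils in a control library and 3 dendritic cells in a rhabdomyolysis library.

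In T, B and NK cells and in macrophages the ribosomal protein share was higher in every rhabdomyolysis library than in any control library. In T cells it was 27.5%, 28.03% and 27.2% in control 1, 2 and 3, against 33.9%, 39.2% and 35.5% in rhabdomyolysis 1, 2 and 3. The control libraries lay within 1 percentage point of each other, rhabdomyolysis 2 stood highest, and the groups did not overlap. The means were 27.6% ± 0.41 (SD, n = 3) and 36.2% ± 2.7, a difference of 8.62 percentage points or a ratio of 1.31. No p-value is given for a share, because it sums genes chosen with results of these data known.

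B cells of control libraries held 29.5%, 30.6% and 29.6%, and those of rhabdomyolysis libraries 34.5%, 38.1% and 35.1%, a difference of means of 5.99 points. As in T cells, rhabdomyolysis 2 was the highest library. NK cells held 23.1%, 21.5% and 22.5% in control libraries and 26.2%, 27.1% and 30.2% in rhabdomyolysis libraries, a difference of 5.47 points. Here rhabdomyolysis 3 was highest, and rhabdomyolysis 2 rested on 17 cells. Macrophages held 17.1%, 17.7% and 18.7% in control libraries and 21.4%, 23.5% and 21.5% in rhabdomyolysis libraries, a difference of 4.28 points. The exact binomial 95% intervals of these shares, which cover counting error only, were at most 1 point wide, narrower than the gap between the groups.

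Monocytes did not follow this pattern. Control 1 and 3, with 18 and 10 cells, had shares of 23.1% and 20.1%, and the rhabdomyolysis libraries had 20.5%, 21.7% and 21.3%. The rhabdomyolysis libraries lay between the control libraries, and the difference of means was -0.40 points. Control 2, with 9 cells and 21.1%, was not counted. The difference was 1.11 without control 1 and -1.91 without control 3, each of which left a single control library, so the control side is too thin to show a direction. Dendritic cells held 29.1%, 29.0% and 28.1% in control, and 26.3% in rhabdomyolysis 3, the 1 rhabdomyolysis library with enough cells, with 22. Rhabdomyolysis 1 and 2, with 5 and 3 cells, had 27.6% and 23.9%. Neutrophils were lowest in both groups, at 4.55%, 4.75% and 4.55% in control from 11, 8 and 8 cells and at 6.14%, 7.43% and 6.60% in rhabdomyolysis from 99, 136 and 137 cells. The groups did not overlap. Free RNA would hold as many ribosomal protein UMIs as were counted if it made up 17.3% to 24.7% of a neutrophil's UMIs; how much it made up was not measured.

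**Figure D1:**
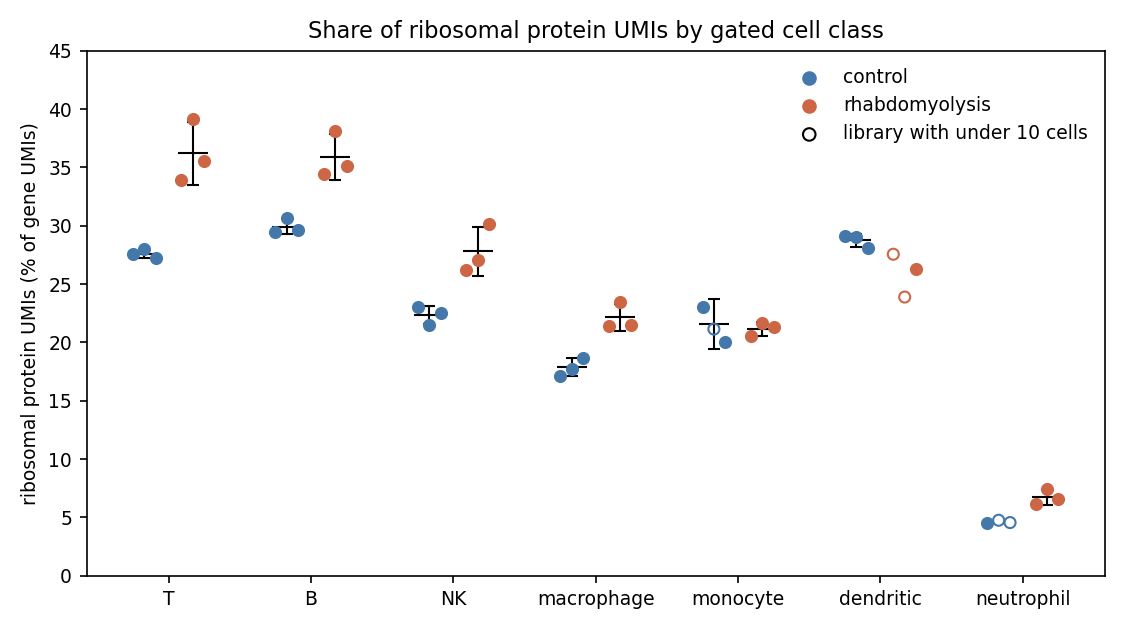
Share of gene UMIs from the 83 ribosomal protein genes (vertical axis, %) in 7 gated cell classes. Points are libraries, open points libraries with under 10 cells, and bars the mean ± SD over libraries with at least 10 cells where there were 2 or more; the groups do not overlap in T, B and NK cells and macrophages, where rhabdomyolysis is higher, and they overlap in monocytes.

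Several other measures moved with these shares, and their part in the result was not tested. The 8 T cell markers used for gating summed to 84.1 to 87.8 UMIs per 10000 in control T cells and 36.8 to 54.7 in rhabdomyolysis T cells, with all 8 detected in each library. The B cell markers summed to 129 to 139 and 83.3 to 116 in B cells, the macrophage markers to 394 to 462 and 246 to 346 in macrophages, and the NK markers to 145 to 205 and 164 to 205 in NK cells. Thus the classes' own markers were lower where ribosomal protein UMIs were higher, with the exception of NK cells. Ptprc, the gene of CD45 itself, was at 10.0 to 10.5 UMIs per 10000 in control T cells and 5.44 to 6.01 in rhabdomyolysis T cells. It was at 4.60 to 5.18 and 1.66 to 3.57 in B cells, 12.8 to 14.95 and 7.97 to 10.6 in NK cells, and 7.15 to 8.30 and 1.74 to 2.63 in macrophages, lower without overlap in each class.

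Mitochondrial UMIs, a sign of RNA and cell quality, were also lower in rhabdomyolysis T and B cells and macrophages. They made up 2.29% to 2.65% of UMIs in control and 1.74% to 2.08% in rhabdomyolysis T cells, 3.33% to 3.67% and 2.20% to 2.76% in B cells, and 2.36% to 2.72% and 1.40% to 2.01% in macrophages, without overlap. In NK cells they made up 1.79% to 2.48% and 1.2% to 1.83%, which overlap. Malat1 took 3.48% to 4.29% of UMIs in control and 1.51% to 2.67% in rhabdomyolysis macrophages, and its groups overlapped in T, B and NK cells.

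Markers of other classes were also counted in each gate. In T cells the 8 macrophage markers summed to 3.60 to 6.07 UMIs per 10000 in control and 3.03 to 11.5 in rhabdomyolysis, which overlap. Other lists were lower in rhabdomyolysis T cells without overlap: the 8 monocyte markers at 7.86 to 9.72 in control and 0.861 to 2.97 in rhabdomyolysis, the 8 B cell markers at 2.22 to 2.49 and 0.482 to 1.04, and the 8 NK markers at 2.06 to 3.10 and 0.207 to 1.79. No kidney tubule marker of 8 had a UMI in rhabdomyolysis T cells.

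In B cells the macrophage markers were higher in rhabdomyolysis without overlap, at 7.79 to 10.8 in control and 11.8 to 23.1, with 2, 6 and 7 of the 8 detected in rhabdomyolysis 1, 2 and 3. The neutrophil markers in B cells were at 0.0129 to 0.0259 and 0.268 to 3.38, also without overlap, and the monocyte markers were lower, at 6.79 to 7.67 and 1.72 to 2.51. In NK cells the macrophage markers were at 1.46, 3.75 and 5.37 in control and 21.8, 17.4 and 3.45 in rhabdomyolysis, where rhabdomyolysis 3, the library with most NK cells and the highest ribosomal protein share, lay in the control range. The neutrophil markers in NK cells were at 0 to 0.158 and 0.106 to 6.05.

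In macrophages the 8 monocyte markers summed to 3.75 to 4.97 in control and 6.92 to 12.97 in rhabdomyolysis, and the 8 neutrophil markers to 0.262 to 0.386 and 1.03 to 5.10. Erythroid markers reached 53.2 in macrophages of rhabdomyolysis 2 and 10.8 in those of rhabdomyolysis 3, against 0.0137 to 0.0540 in the other 4 libraries. The 4 platelet markers summed to 1.94 to 2.45 in control and 5.42 to 16.8 in rhabdomyolysis macrophages. In rhabdomyolysis 1, the library at 16.8, 2 of the 4 were detected, and the platelet markers Itga2b and Gp9 had no UMI. The B cell markers were lower, at 4.61 to 5.15 and 0.343 to 0.711, and so without overlap were the T cell, dendritic cell and kidney tubule markers. Among macrophages with no UMI of any monocyte or neutrophil marker, the ribosomal protein share differed by 5.82 points, more than among all macrophages. A cell with fewer UMIs is likelier to lack these markers by sampling, so this choice can also change depth. Its effect on depth in the groups was not tested.

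Depth per cell went both ways. The median was 3597 to 3783 gene UMIs per T cell in control and 2163 to 3370 in rhabdomyolysis, while macrophages had 3629 to 4120 and 4985 to 7476. The ribosomal protein share of single T cells was larger in cells with more UMIs, with a Spearman rho of 0.473 to 0.575 within libraries, a description over cells that share a library. Among cells with 2000 to 5000 gene UMIs the difference in share was 10.9 points in T, 6.33 in B and 7.24 in NK cells and 5.13 in macrophages, larger in each class than over all cells. Free RNA held 21.9%, 25.5% and 26.4% ribosomal protein UMIs in control and 28.4%, 30.1% and 27.4% in rhabdomyolysis. T and B cells of every library exceeded the free RNA of their own library, and macrophages of every library lay below it. After 20% of each sum was subtracted as free RNA, the differences were 9.74 points in T, 5.64 in B and 5.70 in NK cells and 4.47 in macrophages.

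T cells with a UMI of Cd8b1, a chain of the CD8 coreceptor of cytotoxic T cells, held 31.1%, 29.9% and 32.4% ribosomal protein UMIs in control and 40.4%, 41.3% and 37.8% in rhabdomyolysis. The groups did not overlap, at 31.1% ± 1.2 (SD, n = 3) and 39.8% ± 1.8, from 12 cells upwards per library. T cells with a UMI of Cd4, the coreceptor of helper T cells, held 27.4% ± 1.4 and 36.5% ± 2.4, with 7 to 12 cells in the rhabdomyolysis libraries.

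Over all called cells together the groups did not differ in this way. All called cells of control libraries held 21.9%, 22.2% and 22.7% ribosomal protein UMIs and those of rhabdomyolysis libraries 21.6%, 23.3% and 22.4%, which overlap. Macrophages, whose share is the lowest of the 4 large classes, supplied 63.2% to 68.3% of the UMIs of T, B and NK cells and macrophages in control and 82.4% to 91.6% in rhabdomyolysis. T cells supplied 21.96% to 25.6% and 5.07% to 7.58%. Weighted by the mean control mix of these classes, control libraries had shares of 20.8%, 21.4% and 21.8% and rhabdomyolysis libraries 25.6%, 28.6% and 26.2%. With each library's own mix the shares were 20.9%, 21.1% and 21.97% against 22.3%, 24.9% and 23.6%, so over these classes the groups did not overlap with either mix. All called cells also include the other gated classes and cells that joined no class. Their part in the overlap over all called cells was not tested.

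**Figure D2:**
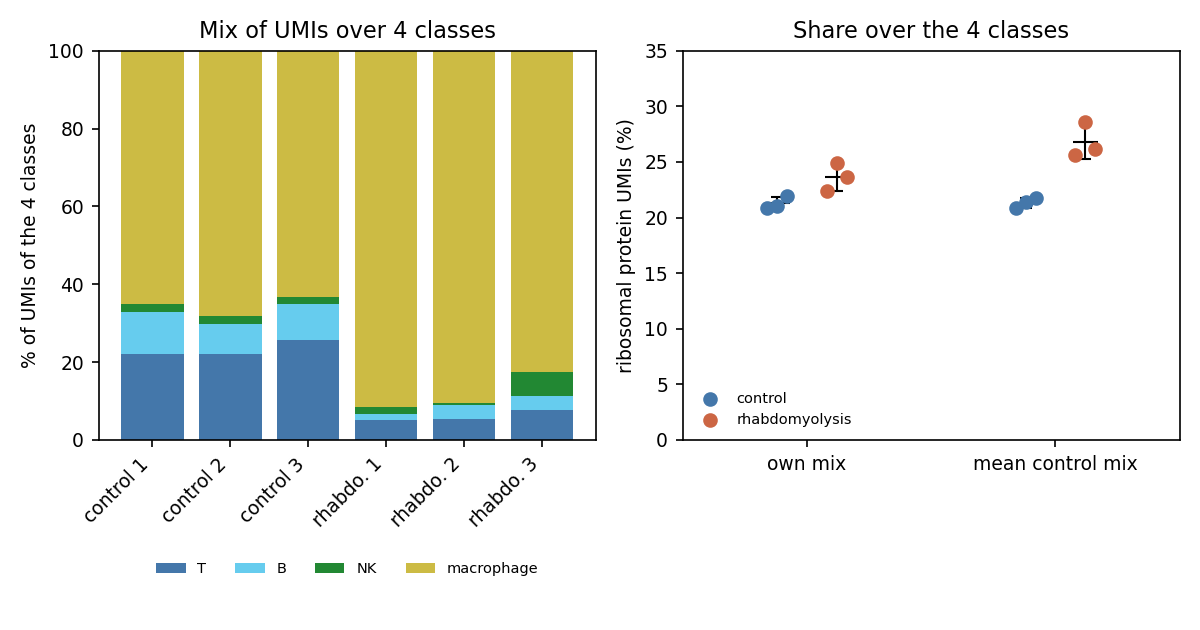
Left, share of the gene UMIs of T, B and NK cells and macrophages that each class supplied in each library (%). Right, ribosomal protein share over these classes with each library's own mix and with the mean control mix, points for libraries and bars for mean ± SD; the means differ by 2.3 points with the own mix and by 5.47 with the control mix.

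Within control kidney the classes differed in level. The order of the ribosomal protein share was B cells, dendritic cells, T cells, NK cells, monocytes, macrophages and neutrophils. B cells lay above dendritic cells and T cells without overlap, dendritic and T cells were separated by less than 0.1 point at their nearest libraries, and NK cells and monocytes overlapped. Per gene, 64 of 80 tested members were lower in NK than in T cells and 1 was higher, at a background of 7.31% of genes lower and 5.65% higher (edgeR quasi-likelihood test, Benjamini-Hochberg adjusted over all genes, library as a term). In macrophages 52 were lower and 3 higher than in T cells, at a background of 32.3% and 35.9%. In B cells 73 were higher and 2 lower than in T cells, at a background of 21.5% and 22%. Scaled by library totals instead of trimmed means (TMM), that last split was 36 higher and 9 lower, with the median of all genes at -0.20.

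The members that set B cells apart most were Rps19, at 0.84 ± 0.04 (SE) log2 above T cells, and Rps20, at 0.80 ± 0.04. Mutations in RPS19 are the commonest known cause of Diamond-Blackfan anaemia, a failure of red cell production. The same genes were among those with the largest deficit in NK cells, at -0.83 ± 0.08 and -0.70 ± 0.08, beside Rpl12 at -0.85 ± 0.09. In macrophages the lowest against T cells was Rpl13a, at -1.20 ± 0.10. Rps27l went against most members in every comparison: it was 0.84 ± 0.08 higher in macrophages, 0.51 ± 0.15 higher in NK cells and 0.36 lower in B cells than in T cells, at a log2 difference of -0.36 ± 0.11. Rpl10 and Rpl7l1 were also higher in macrophages, at 0.54 ± 0.09 and 0.32 ± 0.09, and Rplp1 was also lower in B cells, at -0.09 ± 0.04. Each of these differences had an adjusted p below 0.05 by the edgeR quasi-likelihood test, the largest of them 0.0473.

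The start regions of 8 members are shown because the results below turn on these genes: the widely changed Rplp0, Rps19, Rps2 and Rpl15, the pair Rps27 and Rps27l, Rpl31, which went a way of its own in monocytes, and Rpl13a, which stayed near its control level. Rpl15 and Rpl13a were picked after their values were seen. Each stretch is 50 bases around the start site that RefSeq annotates on build GRCm38.p6, written 5′ to 3′ on the gene's strand, and capitals mark the longest run of C and T within the 15 bases on either side of that start. Bases beyond that window were not searched, so a run that crosses its edge is counted only inside it, as in Rplp0, Rpl31 and Rpl13a.
Rplp0: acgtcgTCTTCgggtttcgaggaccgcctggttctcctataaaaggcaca
Rps19: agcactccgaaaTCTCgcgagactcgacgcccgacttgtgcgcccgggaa
Rps2: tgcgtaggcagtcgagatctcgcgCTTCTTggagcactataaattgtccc
Rpl15: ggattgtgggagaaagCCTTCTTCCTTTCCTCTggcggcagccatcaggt
Rps27: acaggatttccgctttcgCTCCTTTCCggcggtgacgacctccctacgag
Rps27l: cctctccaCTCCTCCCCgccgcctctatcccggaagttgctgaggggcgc
Rpl31: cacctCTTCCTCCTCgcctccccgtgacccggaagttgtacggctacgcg
Rpl13a: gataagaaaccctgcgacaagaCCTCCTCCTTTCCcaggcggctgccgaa

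These stretches lie at chr5:115559447-115559496 (plus strand, Rplp0), chr7:24884572-24884621 (plus, Rps19), chr17:24720043-24720092 (plus, Rps2) and chr14:18270957-18271006 (minus, Rpl15). The others are chr3:90213619-90213668 (minus, Rps27), chr9:66946066-66946115 (plus, Rps27l), chr1:39367831-39367880 (plus, Rpl31) and chr7:45128716-45128765 (minus, Rpl13a). The run inside that window is 17 bases in Rpl15, 13 in Rpl13a, 10 in Rpl31, 9 in Rps27 and in Rps27l, 6 in Rps2, 5 in Rplp0 and 4 in Rps19. The start used in these leukocytes was not measured, so a short run does not show that a gene lacks the tract. A run of 8 or more, searched in the same window, is found in 11.9% of the 27025 promoters in the same table, on the gene's strand. For Rps19 and Rps27l, which have 3 and 2 listed starts, the first was used. Of the 83 members 63 had a promoter entry, 75.9%, under the 80% needed for a statement over the set, so none is made.

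For tests of single members, the UMIs of a gene were added up per class and library. In each class 80 of 83 members passed the filter on low counts, and Rpl3l, Rpl10l and Rpl39l did not. Gene values below are CPM, counts scaled to 1e6 gene UMIs per class and library, and log2 changes are rhabdomyolysis against control. The CPM use library totals, whereas the log2 changes come from fits scaled by TMM. A log2 change therefore need not equal the ratio of the CPM values printed beside it. How reads that match several near-identical copies were counted is not given in the sources used here, and many ribosomal protein genes have processed pseudogenes, so single values are uncertain to that extent. The 5 rows marked -ps held at most 0.0636% as many UMIs as the members.

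In T cells 55 of the 80 tested members rose and 0 fell, at a background of 5.51% of 7925 genes risen and 3.84% fallen. For falls, 0 were called with DESeq2 as well. The median log2 change was 0.56, against -0.01 over all genes tested, and 59 members were higher in every rhabdomyolysis than in any control library, at a background of 8.77%. Of large subunit members 31 of 48 rose and of small subunit members 24 of 32. Without control 3, 36 members were called.

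Rps19, a small subunit protein, was at 4016, 3901 and 3829 in control and 7137, 6871 and 6996 in rhabdomyolysis T cells. The libraries of each group lay close together and the groups were far apart, a log2 change of 1.02 ± 0.11 (SE, adjusted p = 2.28e-05 by the edgeR quasi-likelihood test). Rps20, its neighbour in size of change, went from 4569, 4366 and 4575 to 8151, 8200 and 7241, at 0.99 ± 0.11. Rplp0, the base of the ribosomal stalk, went from 4629, 4297 and 4454 to 7888, 8303 and 7091, at 0.98 ± 0.12. Rpl8, a large subunit protein near the peptidyl transferase centre, followed at 0.88 ± 0.12.

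The other stalk genes had smaller log2 changes than Rplp0 in T cells, a difference that was not tested. Rplp1, which sits on Rplp0, was at 5862, 6119 and 6279 in control and 5885, 8509 and 8337 in rhabdomyolysis. Rhabdomyolysis 1 lay within the control range and the other libraries above it, so the groups overlap although the gene was called at 0.51 ± 0.15 (adjusted p = 0.0392, edgeR quasi-likelihood test). Its partner Rplp2 was not called, at 2848, 3141 and 3087 against 2773, 4420 and 3716 (log2 change 0.46 ± 0.16). Rpsa, the small subunit protein also known as the laminin receptor, rose from 5835, 5715 and 5640 to 8464, 8919 and 8025, at 0.75 ± 0.11.

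Other T cell members near 0 were Rpl13a, Rps15 and Rpl23a, whose log2 changes were -0.02, -0.01 and -0.07. Rpl13a is known as a part of the interferon-induced complex that silences translation of inflammatory mRNAs in myeloid cells. Its T cell values were 3918, 4529 and 4248 in the control libraries against 2381, 4640 and 3873. Rhabdomyolysis 1 was the lowest library, as it also was for Rpl13a in B cells (2289), NK cells (1466), macrophages (1004) and monocytes (831).

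**Figure D3:**
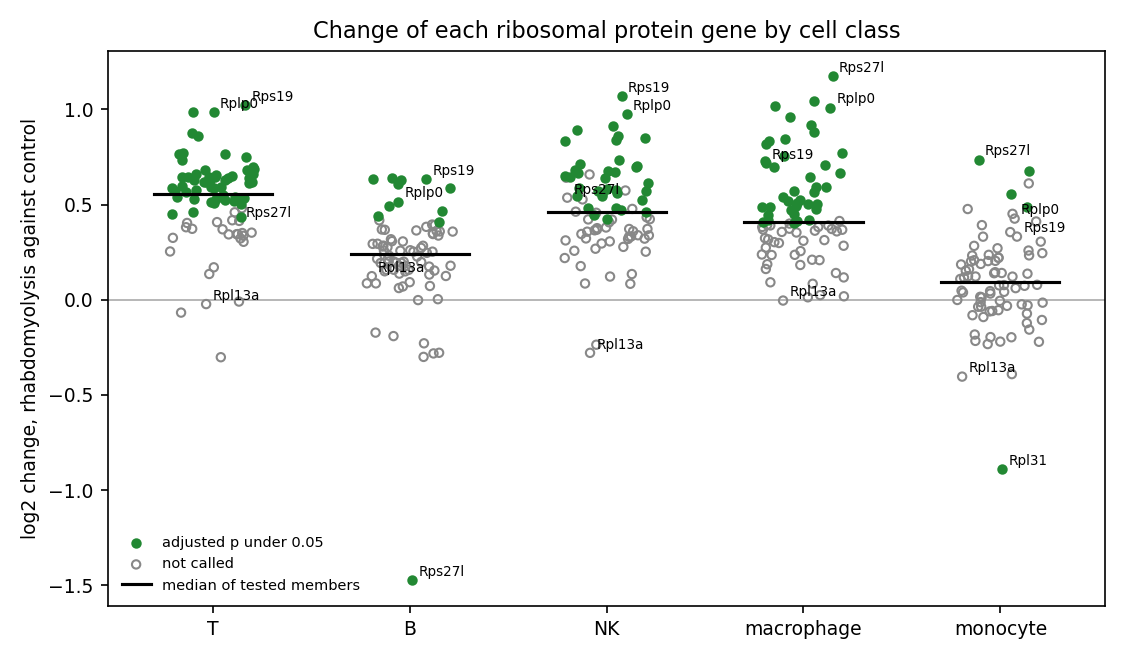
Log2 change of each tested ribosomal protein gene, rhabdomyolysis against control (vertical axis), in 5 cell classes, 1 point per gene, with filled points called at an adjusted p under 0.05 and the line at the median. The medians are 0.56 in T, 0.24 in B and 0.46 in NK cells, 0.41 in macrophages and 0.09 in monocytes.

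In B cells 11 members rose and 1 fell, at a background of 1.83% risen and 2.19% fallen of 4929 genes. The median log2 change of the tested members was 0.24, against -0.01 over all genes, and 45 members were higher without overlap, at a background of 9.66%. Leaving out 1 library lowered the count of 12 called members to 5 without control 1 or without rhabdomyolysis 2, 6 without control 2 and 7 without control 3. It was 22 with DESeq2 and 7 without the filter on low counts. Rps27 went from 6864, 6965 and 6779 in control to 10162, 11617 and 9499 in rhabdomyolysis, at 0.64 ± 0.12 (adjusted p = 0.00172, edgeR quasi-likelihood test). Rps20, Rps19 and Rpl21 rose by 0.64, 0.63 and 0.63, each with every rhabdomyolysis library above every control library. Rpsa and Rplp0 rose by 0.41 and 0.51, while Rplp1 and Rplp2 were at 0.09 and 0.26 and were not called.

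In NK cells 36 members rose and 0 fell, from 3 control and 2 rhabdomyolysis libraries, since rhabdomyolysis 2 had under 20 cells. The background was 3.21% risen and 1.91% fallen of 2992 genes, and the count of falls was 0 with DESeq2 too. The median log2 change of the tested members was 0.46. The count moved with the setting: it was 1 with the replicate number as a block, 9 without the filter on low counts and 19 with library totals. It was 16, 12 and 11 without control 1, 2 and 3, and 66 and 15 without rhabdomyolysis 1 and 3, each of which leaves 1 rhabdomyolysis library whose spread is taken from the control libraries. Rps19 went from 2263, 2290 and 2419 to 4127 and 4579, at 1.07 ± 0.13 (adjusted p = 7.73e-05, edgeR quasi-likelihood test). Rplp0 followed at 0.98 ± 0.14, Rps2, a small subunit protein at the mRNA entry channel, at 0.91 ± 0.15 and Rps20 at 0.89 ± 0.14. Rpsa rose from 4459, 4141 and 4010 to 6469 and 6932, at 0.83 ± 0.12, and Rplp1 by 0.67, while Rplp2, at 0.42, was not called.

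In macrophages 40 members rose and 0 fell, at a background of 20.4% risen and 20.4% fallen of 10727 genes, and 0 fell with DESeq2. This class changed broadly, so the members' 50% is to be read against that 20.4%. The median log2 change of the tested members was 0.41, against -0.05 over all genes, and 52 were higher without overlap, at a background of 21.1%. Without control 1 the count was 18, and without control 2 it was also 18. Among macrophages with no UMI of a monocyte or neutrophil marker it was 41.

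The macrophage members with the largest rise, after Rps27l described below, were Rpl8, Rps2 and Rplp0. Rpl8 went from 1767, 1697 and 1835 to 3608, 3359 and 3028, at 1.04 ± 0.15 (adjusted p = 0.00105, edgeR quasi-likelihood test). Rps2 went from 2062, 1971 and 2210 to 4088, 3488 and 4002, at 1.02 ± 0.15. Rplp0 went from 2394, 2370 and 2436 to 4867, 4300 and 4094, at 1.01 ± 0.15. In these genes the lowest rhabdomyolysis library stood well above the highest control library. Rpsa rose from 2858, 2836 and 2933 to 4717, 4294 and 4060, at 0.73 ± 0.14, whereas Rplp1 and Rplp2, at 0.39 and 0.41, were not called. The members nearest 0 included Rpl13a, Rps21 and Rps27, at -0.00, 0.01 and 0.02.

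Monocytes were tested with a minimum of 8 cells per library, chosen after the cell numbers were seen, because control libraries had 9 to 18. Of the tested members 4 rose and 1 fell, at a background of 7.46% risen and 7.36% fallen of 4663 genes, against 5% of the members risen. This count is not stable: with DESeq2 7 rose and 1 fell, with library totals 1 rose and 2 fell, and without the filter on low counts 37 rose and 0 fell. Rps2 went from 2648, 2381 and 2620 to 3949, 3745 and 3484, at 0.67 ± 0.14 (adjusted p = 0.00507, edgeR quasi-likelihood test), Rpl41, the smallest ribosomal protein, rose by 0.56, and Rpl8 by 0.49. Rpl31, a large subunit protein at the peptide exit tunnel, was the member that fell: it was at 1078, 1070 and 687 in control and 438, 501 and 472 in rhabdomyolysis, a log2 change of -0.89 ± 0.19 (adjusted p = 0.00691, edgeR quasi-likelihood test). Control 3 lay between control 1 and 2 and the rhabdomyolysis libraries, and without control 1 or 2 the fall, at -0.62 and -0.69, was not called. In macrophages the same gene rose, from 325, 347 and 355 to 501, 531 and 635, at 0.82 ± 0.15. Monocytes of the groups also differed in gate markers: the 8 monocyte markers summed to 59.7 to 69.2 UMIs per 10000 in control and 146 to 161 in rhabdomyolysis, and the 8 neutrophil markers to 0.151 to 0.391 and 28.6 to 37.9.

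Across T, B and NK cells and macrophages, 7 members rose in all of these classes: Rpl8, Rpl21, Rplp0, Rps19, Rps20, Rps29 and Rpsa. A further 20 rose in 3 classes, 18 in 2 and 18 in 1. Of the 2723 genes tested in each of these classes, members included, 0.367% rose in all, 1.65% in 3, 3.86% in 2 and 37.0% in 1, against 8.75%, 25%, 22.5% and 22.5% of the 80 tested members. The remaining 20 rose in none, among them the 3 below the filter, and included Rpl10, Rpl13a, Rpl5, Rps14, Rps15, Rps21 and Rplp2. The comparisons of different classes use the same libraries, so these counts are not independent of each other.

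**Figure D4:**
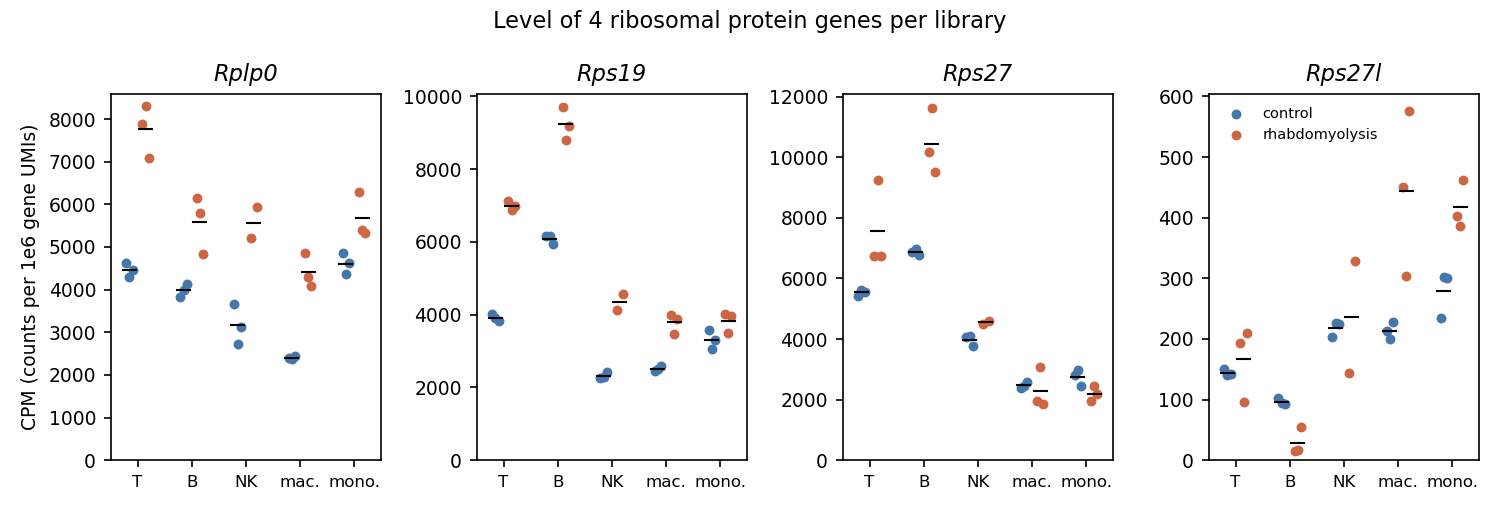
Level of Rplp0, Rps19, Rps27 and Rps27l (CPM) in T, B and NK cells, macrophages (mac.) and monocytes (mono.); points are libraries entering the fit and lines are group means. Rplp0 and Rps19 are higher in rhabdomyolysis without overlap in T, B and NK cells and macrophages, and Rps27l is lower in B cells and higher in macrophages.

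Large and small subunit members did not rise in equal measure. The ratio of large to small subunit UMIs in T cells was 1.16, 1.16 and 1.16 in the control libraries against 1.11, 1.09 and 1.12. In B cells the means were 1.10 ± 0.015 (SD, n = 3) and 1.04 ± 0.041, in NK cells 1.21 ± 0.0018 and 1.18 ± 0.0046, and in macrophages 1.22 ± 0.0069 and 1.19 ± 0.013. The groups did not overlap in these 4 classes, and the rhabdomyolysis libraries were lower in each. In monocytes the means were 1.212 and 1.199 and the groups overlapped.

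Rps27 and Rps27l encode close paralogs of a small subunit protein, and Rps27l is known as a p53 target gene. In macrophages Rps27l went from 213, 200 and 228 to 450, 303 and 577, at 1.18 ± 0.23 (adjusted p = 0.00408, edgeR quasi-likelihood test), with every rhabdomyolysis library above every control library. Rps27 in the same cells was at 2383, 2448 and 2571 in control and 1958, 3085 and 1842 in rhabdomyolysis. Rhabdomyolysis 2 lay above and rhabdomyolysis 1 and 3 below the controls, and the log2 change was 0.02 ± 0.21 and -0.10 with library totals.

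In B cells the pair went apart the other way. Rps27l fell from 102, 94.5 and 93.3 to 14.6, 16.1 and 54.9, at -1.48 ± 0.35 (adjusted p = 0.0131, edgeR quasi-likelihood test), while Rps27 rose. The rhabdomyolysis values stand on 1, 3 and 12 UMIs, against 132, 71 and 72 in control, and rhabdomyolysis 3 is the nearest to control. The fall was -1.41, -1.34 and -1.12 without control 1, rhabdomyolysis 1 and rhabdomyolysis 2, with adjusted p of 0.058, 0.0721 and 0.161 by the edgeR quasi-likelihood test, and so was not called. Over its alternatives with 3 libraries a group the adjusted p ran from 0.000341 to 0.0375. In T cells Rps27l was at 150, 140 and 142 against 194, 96.4 and 210, with rhabdomyolysis libraries on both sides of the controls, and was not called. In monocytes it rose from 234, 301 and 301 to 403, 387 and 462, at 0.74 ± 0.21, and in NK cells it was not called.

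Rpl22l1, the paralog of the large subunit gene Rpl22, rose in T cells from 695, 650 and 661 to 895, 795 and 943, at 0.58 ± 0.13, and in macrophages from 269, 242 and 287 to 391, 365 and 434, at 0.70 ± 0.15. Rpl22 itself was not called in either, at 0.34 and 0.21. In NK cells Rpl22l1 was at 691, 570 and 720 in control and 430 and 541 in rhabdomyolysis, a log2 change of -0.24 that was not called. The T cell call of Rpl22l1 was lost without control 1, 2 or 3, at 0.60, 0.56 and 0.57, and with library totals, at 0.39. The macrophage call was lost without control 2, at 0.62. Of the other parent genes, Rpl3 rose in T cells, NK cells and macrophages by 0.69, 0.52 and 0.49, Rpl39 in T and NK cells by 0.64 and 0.54, Rps4x in T and NK cells by 0.62 and 0.57, and Rpl10 in no class.

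Whether a member changed by a different amount in another class was tested with an interaction term, in a fit that holds the library. Between B and T cells 51 of 80 tested members differed, each with a log2 change that was lower in B than in T cells, by a smaller rise or by a fall, at a background of 3.5% lower and 0.668% higher. The median difference over the members was -0.40, against -0.12 over all genes. With library totals 16 differed, also all lower in B cells, and without rhabdomyolysis 1 the count was 32. The largest were Rps27l, at -1.91 ± 0.36, Rpl7a, at -0.70 ± 0.13, and Rpl41, at -0.65 ± 0.10. Rpl7a was at 1271, 1273 and 1294 against 1248, 1377 and 1621 in T cells and 1309, 1281 and 1227 against 787, 923 and 1271 in B cells, and was called in neither class by itself.

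Between macrophages and T cells 8 members had a higher log2 change in macrophages and 1 a lower one, which is 10% and 1.25% of the members at a background of 15.9% and 7.06%, so they differed in no larger share than all genes did. Rps27l differed by 0.97 ± 0.19 and Rpl7l1 by 0.87 ± 0.23, and Rps27, with the lower change, by -0.47 ± 0.17. The members' median difference was 0.05, against 0.18 over all genes. The count of 9 was 2, 3, 5 and 5 without control 1, control 2, rhabdomyolysis 1 and rhabdomyolysis 3. Between NK and T cells 1 member differed, Rpl22l1 at -0.86 ± 0.21, which is 1.25% of the members at a background of 0.667% lower and 0.438% higher, and 0 did without control 1, control 3, rhabdomyolysis 1 or rhabdomyolysis 3.

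Genes that work beside the ribosomal proteins were counted from lists, to be read against the share of all tested genes that rose: 5.51% in T, 1.83% in B and 3.21% in NK cells, 20.4% in macrophages and 7.46% in monocytes. Of 23 translation factors and other mRNAs with a terminal oligopyrimidine start, 6 rose and 0 fell in T cells, 26.1% of the list. Gas5, a non-coding host of small nucleolar RNAs with such a start, rose there by 1.21 ± 0.17 and the elongation factor Eef1a1 by 0.49 ± 0.11. In B cells 2 of 23 rose, Gas5 by 0.80 and Fau, whose product is cut into a small subunit ribosomal protein, by 0.46. In NK cells 1 of 22 rose, the nucleolar chaperone Npm1, a share of 4.55% near the background, and in macrophages 12 of 23, with Pabpc1 at 0.85 and Btf3 at 0.71. In monocytes 0 of 22 rose.

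Ribosome biogenesis genes, which build the subunits in the nucleolus, parted the classes further. In macrophages 25 of 32 rose and 0 fell, with a median log2 change of 1.2, and Nhp2 and Ltv1 rose by 1.90 and 1.90. In T cells 1 of 30 rose, Gnl3 at 0.81, a share of 3.33% under the background, in B cells 0 of 21, in NK cells 4 of 14, with Nop58 at 1.44 and Ncl at 0.96, and in monocytes 1 of 18. Mitochondrial ribosomal proteins, which serve a separate ribosome, rose in 55 of 78 in macrophages, 4 of 76 in T cells, where 1 fell and the 5.26% risen is near the background, 0 of 69 in B cells, 3 of 51 in NK cells and 2 of 67 in monocytes. Thus in T cells cytosolic members were called risen in a much larger share of those tested than biogenesis or mitochondrial ribosomal genes were. In macrophages the share was smaller, and these are counts without a test of the difference. A call also depends on a gene's UMIs, and Gnl3 stood on 15, 34 and 47 in rhabdomyolysis T cells. Biogenesis genes had a positive log2 change in 22 of 30 in T cells, with a median of 0.15. It was positive in 14 of 14 in NK cells, with a median of 0.75 against the members' 0.46, and in 3 of 21 in B cells, with a median of -0.20.

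Genes of mTORC1 and the control of translation rose in 8 and fell in 3 of 25 in macrophages. Eif4ebp1, a repressor of cap-dependent translation that mTORC1 inactivates, rose by 1.34, Rheb, an activator of mTORC1, by 1.01, and Rptor, a subunit of the complex, fell by 0.91. In T cells 1 of 21 rose, 4.76% of the list and under the background: Myc, a transcription factor known to drive ribosomal genes, at 1.73 ± 0.32. The Myc values stand on 7, 8 and 23 UMIs in rhabdomyolysis, against 36, 33 and 24 in control. In B cells 1 of 13 rose, Sesn1, a stress-induced inhibitor of mTORC1, at 2.03 ± 0.28. In NK cells 0 of 5 were called and in monocytes 1 of 9, Eif4ebp1 at 1.21.

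**Figure D5:**
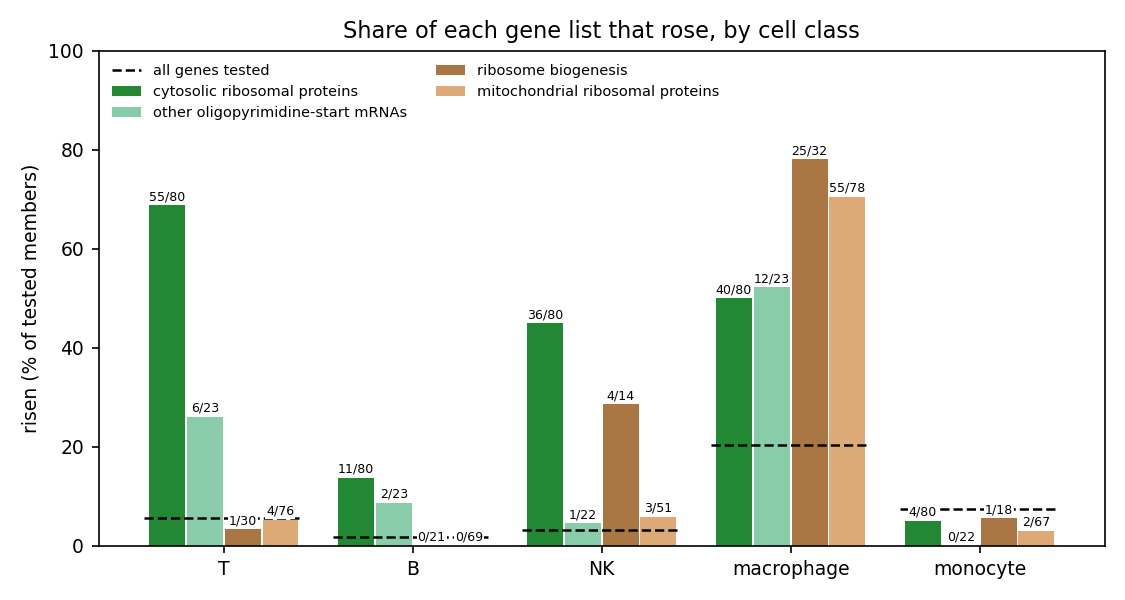
Percent of tested genes that rose (vertical axis) for 4 lists in 5 cell classes, with the number risen and tested over each bar and the share of all genes tested as a dashed line. In T cells the cytosolic ribosomal proteins stand at 68.8% and biogenesis genes at 3.33%; in macrophages biogenesis genes stand at 78.1% and the cytosolic ribosomal proteins at 50%.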

How the data were processed

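The deposited matrices hold raw UMI counts per gene and barcode, not filtered for cells; Cell Ranger 4 made them, per the file headers, and the genome build is mm10, per the submitters' processing notes. The files also hold 6 antibody tags, not used here. Barcodes with at least 500 gene UMIs, 200 genes and at most 15% mitochondrial UMIs were kept where they differed from free RNA (barcodes of at most 100 UMIs, multinomial test of 10000 draws, adjusted p at most 0.001) and had at least 0.1% Malat1. A cell joined a class with at least 2 of 8 markers and a lead of 2 over other classes; no doublet caller was run. Shares need 10 cells per library and fits 20. Counts were summed per class and library and tested with edgeR 4.0.16 (R 4.3.3) quasi-likelihood tests, TMM, filterByExpr and Benjamini-Hochberg adjustment over all genes, called under 0.05; SE is the log2 change over the square root of F. DESeq2 1.42.0 was an alternative. Dendritic cells and neutrophils had too few cells for a fit. In data simulated on T cells, 106 of 200 2-fold changes over 7866 genes were recovered, with 2 false calls.

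The members and lists were chosen with earlier results of these data known. Named members were the 4 risen and 4 fallen with the largest change in each class, the stalk genes and Rpsa, and paralogs beside their parents; of other lists, the 2 risen and 2 fallen with the smallest p. Others, named for a small change, for a difference between classes or for rising in all classes, were chosen after their values were seen. Some members and an added split of the T cells are not reported here.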

Additional observations from a re-analysis of the deposited data

Results flagged for a closer look

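Changes of single members differed between classes in 3 comparisons, by the edgeR interaction test with Benjamini-Hochberg adjustment. Between macrophages and T cells 9 members differed, led by Rps27l (log2 difference 0.97) and Rpl7l1 (0.87). Of all genes 15.9% had a higher and 7.06% a lower log2 change in macrophages, against 10% and 1.25% of the members. Between B and T cells 51 members differed, led by Rps27l (-1.91), Rpl7a (-0.70) and Rpl41 (-0.65), at a background of 3.5% lower. Between NK and T cells 1 member differed, Rpl22l1 (-0.86), 1.25% of the members at a background of 0.667%.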

How the results depend on the processing

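Of 164 alternative values of shares and counts, 124 stayed within a set limit of the main value, 39 moved and 1 reversed. For a share the limit was the pooled SD of the libraries. For a count only the total called was compared, not its split into rises and falls. The difference in share with 1 library left out ran from 7.14 to 9.77 points in T, 4.86 to 6.71 in B and 4.29 to 6.28 in NK cells, 3.60 to 4.69 in macrophages and -1.91 to 1.11 in monocytes, where it reversed without control 1. It moved to 10.9 in T and 7.24 in NK cells of 2000 to 5000 UMIs and to 5.82 in macrophages without monocyte or neutrophil marker UMIs. Members called with 1 library left out ran from 36 to 66 in T, 5 to 12 in B and 11 to 66 in NK cells, 18 to 51 in macrophages and 3 to 7 in monocytes. Class differences ran from 2 to 13 for macrophages, 32 to 49 for B and 0 to 1 for NK cells against T cells. The cause of these moves was not tested, and leaving out a library also leaves fewer samples.

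Members called were 22 in B cells and 8 in monocytes with DESeq2, and 7 in B cells, 9 in NK cells and 37 in monocytes without the filter on low counts. With library totals 19 were called in NK cells and 3 in monocytes, 16 differed in change and 45 in level between B and T cells, and the median of all genes moved to -0.19 in T cells, -0.21 in NK cells, -0.18 in macrophages and -0.11 in monocytes. After subtraction of free RNA 2 were called in monocytes.

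With the replicate number as a block 55 were called in T cells, 15 in B cells, 1 in NK cells, 28 in macrophages and 3 in monocytes. Same-numbered libraries correlated at 0.046, 0.073 and 0.039 in T cells, -0.011, 0.058 and 0.060 in B cells and 0.16, 0.30 and 0.078 in macrophages. Differently numbered libraries ran from -0.055 to 0.011 in T cells, -0.090 to 0.037 in B cells and -0.27 to 0.094 in macrophages. The labels do not say that a number pairs libraries, and whether same-numbered libraries share a batch was not tested. In T cells each library correlated best with its own number.

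Signs turned, in genes that were not called, for Rps27 in macrophages (-0.10 with library totals, -0.018 with the block, -0.016 with Malat1-poor barcodes kept, -0.17 to 0.18 with 1 library left out) and in monocytes (0.20 without the filter). They turned for Rps27l in T cells (-0.43 with free RNA subtracted) and in NK cells (-0.50 to 0.81 with 1 library left out), and for Rpl22 in B cells (-0.046 without the filter, -0.051 to 0.14 with 1 library left out). In monocytes they turned for Rpl22 (-0.14 with library totals, -0.11 to 0.23 with 1 library left out) and Rpl22l1 (-0.14 with library totals, -0.021 with free RNA subtracted, -0.20 to 0.21 with 1 library left out). Marker leads of 3 could not be fitted in NK cells and monocytes. B and NK cells and monocytes had few cells, and dendritic cells and neutrophils too few for a fit.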
